A study of Mus musculus with 4 samples.

Results

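ERVL and MaLR elements are 2 related kinds of retrotransposon in the mouse genome. Members were taken from the repeat features of the count table by their class label, ERVL or MaLR, without use of any measured value. The set itself was picked for study with earlier results of these data known. The table listed 307 such rows among its 1398 repeat rows, 153 for reads in the sense direction of the element and 154 for antisense reads. These rows stood for 168 distinct elements, of which 75 were classed ERVL, 2 ERVL with a question mark and 91 MaLR, and 139 were listed on both strands. An element here is a named repeat sequence summed over all of its copies in the genome, so a value describes a family of copies and not a single locus. Of the 168 elements, 116 were long terminal repeats (LTRs) and 52 were internal sequences, marked "-int".

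The libraries came from testicular total RNA of adult mice at postnatal day 60 on a C57Bl/6J background. There were 2 libraries of homozygous knockouts (Nef-sp-/-) and 2 of heterozygous controls (Nef-sp+/-), which carried the mutant allele on 1 chromosome. The mutant allele was made with the Cas9 nickase and a pair of guide RNAs and lacks 23 bp, which shifts the reading frame of Nef-sp, a testis 3′ to 5′ exoribonuclease that is also named RNA exonuclease 5. The labels do not say that replicates came from separate animals, so p-values measure the spread between these libraries, which may be technical. Depth was 20659865 reads for control replicate 1, 34442517 for control replicate 2, 21104999 for knockout replicate 1 and 20685289 for knockout replicate 2. Pairs of values below are in the order of replicate 1 and replicate 2.

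An endogenous retrovirus consists of an internal sequence flanked by a pair of LTRs, and recombination between the pair often leaves a solitary LTR behind. MERVL is the mouse ERVL with full-length copies, and its LTR is MT2_Mm. MERVL is known for its burst of transcription in the early cleavage embryo, where MT2_Mm acts as the promoter of chimeric transcripts with host genes. MaLR elements, which include the rodent MT and ORR1 groups and the older MLT1 group, are non-autonomous: their internal sequences encode no proteins of their own, and MT LTRs are known as promoters in the oocyte. Both kinds are kept silent in most cells by chromatin factors such as TRIM28, SETDB1 and KDM1A. No sequence of these elements is shown, since the consensus sequences were not analysed here.

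Nef-sp itself, listed as 2610020H08Rik, had 1843 and 1693 normalized counts in Nef-sp+/- against 407 and 497 in Nef-sp-/- (log2 fold change −1.97, edgeR adjusted p = 4.12e-06 over 10728 gene exon sense features). Normalized counts are reads scaled to a common library size within an annotation category and strand. The markers of elongating spermatids were abundant in every library: Prm1, Prm2 and Tnp2 summed to 248759 and 310731 normalized counts in the controls and 312002 and 303228 in the knockouts. The 4 Sertoli cell markers found in the table, of 5 looked for, summed to 2284 to 2429. In whole testis, fewer cells of a type and less RNA per cell cannot be told apart.

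ERVL and MaLR elements were a small part of the repeat reads and a large part of the LTR reads. They gave 70972 sense and 69828 antisense reads in Nef-sp+/- replicate 1, and 107984 and 101775 in replicate 2. In Nef-sp-/- they gave 66745 and 64484 reads in replicate 1, and 74422 and 74040 in replicate 2. This was 4.01% and 3.72% of all repeat reads in Nef-sp+/- against 3.84% and 4.21% in Nef-sp-/-. The genotypes overlapped, and the difference of 0.158 percentage points did not exceed the pooled replicate SD, 0.235 points (two-sided exact permutation test, p = 0.667, where 2 libraries against 2 cannot go below 0.333). Their share was 2.16% to 2.45% of the repeat sense reads. Of reads from LTR elements of every class, they made up 41.1% to 42.2%.

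On the antisense strand their share of repeat reads was 15.9% and 15.7% in the controls and 15.1% and 15.2% in the knockouts. Both knockout libraries were lower, with a difference of −0.689 points against a pooled SD of 0.0731 points (exact permutation p = 0.333, the smallest that this design allows; 0.722 after Benjamini-Hochberg adjustment over 13 shares). The members' own antisense reads summed to 77533 and 76267 normalized counts in the controls and 78262 and 78685 in the knockouts, a ratio of 1.02. The antisense reads of all other repeats together had a ratio of 1.08, but their large classes did not share it. The ratio was 1.01 for ERVK and 1.04 for ERV1, which are other LTR classes. It was 1.05 for LINE, 0.993 for SINE and 0.991 for DNA elements, so these classes lay on both sides of the members. When LTR reads alone were the denominator, the antisense share was 54.7% and 54.8% in Nef-sp+/- against 55.4% and 54.4% in Nef-sp-/-, and the genotypes overlapped.

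A few elements held much of the signal. The 10 with the most reads over both strands together gave 37.9% to 39.0% of the ERVL and MaLR reads. By group, the mean over the 4 libraries was 25.8% for MT, 24.6% for MLT1, 19.2% for ORR1, 15.8% for MERVL with the MT2 LTRs, 14.0% for all other ERVL elements and 0.566% for the other MaLR elements, which were MLT-int and 1 further internal sequence. LTRs gave 76.2% and internal sequences 23.8%. No row of the table was named MST or THE1, which are further MaLR groups. These are sums over genomic copies of unequal number and length, so they do not rank the elements by expression per copy.

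MERVL-int, the internal sequence of MERVL with its gag and pol regions, had more antisense reads than any other member and was behind only RMER15 and MLT1D in sense reads. Its sense reads were 4495 and 3786 normalized counts in the controls and 3973 and 5047 in the knockouts. Its antisense reads were 6934 and 5716 in Nef-sp+/- against 5946 and 7367 in Nef-sp-/-. On both strands Nef-sp+/- replicate 1 and Nef-sp-/- replicate 2 were the high libraries, and the genotypes overlapped. The knockout over control log2 fold change was 0.12 in sense (95% interval −0.12 to 0.37, adjusted p = 0.998) and 0.07 in antisense (−0.22 to 0.37, adjusted p = 0.9997), both from edgeR's quasi-likelihood test adjusted by Benjamini-Hochberg over the 578 sense or 553 antisense repeat features tested.

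MT2_Mm, the LTR that drives MERVL, had the same pair of high libraries. Its sense reads were 1423 and 1233 normalized counts in the controls and 1225 and 1596 in the knockouts. Its antisense reads were 1389 and 1181 in Nef-sp+/- against 1225 and 1430 in Nef-sp-/-. The log2 fold changes were 0.09 (95% interval −0.16 to 0.35) and 0.05 (−0.20 to 0.30), again with overlapping genotypes. MERVL_2A-int, a second internal sequence of this group, had 1135 and 1045 sense normalized counts in the controls and 1000 and 1260 in the knockouts, a log2 fold change of 0.05. Its antisense counts were 565 and 467 in Nef-sp+/- against 439 and 536 in Nef-sp-/-, with a log2 fold change of −0.07.

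The sense reads of MT2A, MT2B and MT2B2 varied less between libraries. MT2A had 2603 and 2786 sense normalized counts in the controls and 2809 and 2649 in the knockouts, and MT2B had 1585 and 1562 against 1555 and 1673. MT2B2 sense counts were 1161 and 1195 in Nef-sp+/- against 1163 and 1099 in Nef-sp-/-. The exception was MT2C_Mm sense, the lowest of the group, with 103 and 106 in the controls and 83.5 and 130.1 in the knockouts. Over the 14 strand-specific values of the MERVL and MT2 elements, the log2 fold changes lay between −0.08 and 0.12, none had an unadjusted p below 0.05, and every 95% interval was within ±0.5. All 14 overlapped between genotypes.

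**Figure D1:**
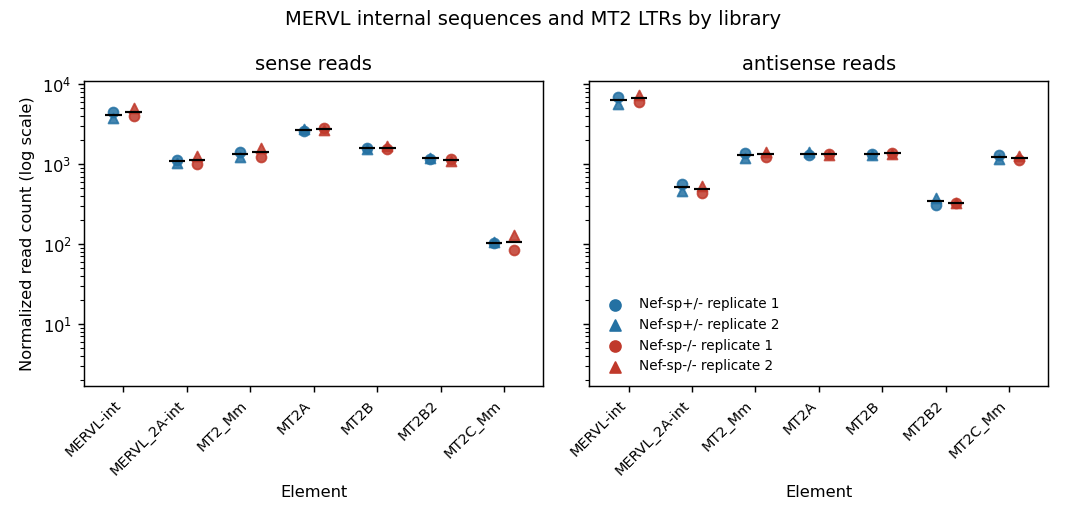
Normalized read counts (log scale) of the 7 MERVL and MT2 elements on the sense strand (left) and the antisense strand (right); each point is 1 library, circles are replicate 1, triangles replicate 2, and the bar is the mean of a genotype (blue Nef-sp+/-, red Nef-sp-/-). For MERVL-int the blue circle and the red triangle are the higher points on both strands, and the points of the genotypes overlap for every element.

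RMER15, an ERVL LTR of rodents, had the most sense reads of all members, 5351 and 5480 normalized counts in Nef-sp+/- against 5292 and 5375 in Nef-sp-/- (log2 fold change −0.02, 95% interval −0.19 to 0.15). Its internal sequence RMER15-int had 2565 and 2393 in the controls and 2425 and 2642 in the knockouts (log2 fold change 0.03). Both overlapped between genotypes, and the 95% interval of each included 0. Of all other ERVL elements, ERVL-E-int had the most antisense reads, 1712 and 1695 in Nef-sp+/- against 1686 and 1629 in Nef-sp-/-, with a log2 fold change of −0.04 (95% interval −0.25 to 0.17).

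The MT group, found in rodents, was led by MTD and MTA_Mm. MTD had 4204 and 4299 sense normalized counts in the controls and 4281 and 4109 in the knockouts, and 3210 and 3064 antisense counts against 3089 and 3204. Its log2 fold changes were −0.02 and 0.00. MTA_Mm was less even, with 2367 and 2116 sense counts in Nef-sp+/- against 2178 and 2685 in Nef-sp-/-, and 3177 and 2876 antisense counts against 3054 and 3639. Here too Nef-sp+/- replicate 1 and Nef-sp-/- replicate 2 were highest, and the log2 fold changes of 0.12 and 0.15 had intervals that include 0. MTEa and MTE2a had log2 fold changes of 0.02 and 0.06 in sense and −0.07 and 0.05 in antisense.

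The ORR1 group was led by ORR1E on both strands, with 1649 and 1700 sense normalized counts in the controls and 1617 and 1677 in the knockouts, and 3902 and 3756 antisense counts against 4003 and 3793. ORR1D1 antisense reads were 2604 and 2258 in Nef-sp+/- against 2511 and 2738 in Nef-sp-/-. The log2 fold changes were −0.02 for ORR1E sense, 0.03 for ORR1E antisense and 0.11 for ORR1D1 antisense, and all 3 overlapped between genotypes.

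MLT1 elements are shared with other mammals, and among those with the most reads another pair of libraries was often higher. MLT1E2 antisense reads were 2727 and 3622 in the controls and 3875 and 3039 in the knockouts, and MLT1J antisense reads were 3492 and 3838 against 4003 and 3136. MLT1D sense reads were 4465 and 4426 in Nef-sp+/- against 4549 and 3981 in Nef-sp-/-. In MLT1E2, MLT1J and the antisense reads of MLT1D, which were 2166 and 2604 against 2652 and 2351, Nef-sp+/- replicate 2 and Nef-sp-/- replicate 1 were the high libraries. The log2 fold changes were 0.12 for MLT1E2 antisense, −0.04 for MLT1J antisense, and −0.06 and 0.07 for MLT1D sense and antisense. MLT1A1 and MLT1K, other LTRs with many sense reads, had log2 fold changes of 0.04 and 0.09. MLT-int, of the other MaLR elements, had 183 and 173 sense counts in the controls and 149 and 196 in the knockouts, and 588 and 638 antisense counts against 572 and 543.

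The 2 strands were read about equally. Sense reads made up 50.4% and 51.5% of ERVL and MaLR reads in Nef-sp+/- against 50.9% and 50.1% in Nef-sp-/-, from the raw counts of a strand-specific library (difference −0.448 points, pooled SD 0.65 points, exact permutation p = 0.667). Within the groups, the MLT1 sense share was 51.6% and 51.1% against 50.7% and 50.6%, and that of the other ERVL elements 60.3% and 60.7% against 60.1% and 60.2%, both lower in the knockouts (exact permutation p = 0.333 each, the smallest possible, and 0.722 adjusted over 13 shares), and the other 4 groups overlapped between genotypes. The mean sense share was 65.9% for ERVK and 82.4% for ERV1 elements, which are LTR classes too, 56.1% for LINE, 59.3% for SINE and 55.8% for DNA transposons. ERVL and MaLR elements had the lower sense share in 4 of 4 libraries against each of these 5 classes, with mean differences of −31.7 points from ERV1, −15.2 from ERVK, −8.59 from SINE, −5.37 from LINE and −5.10 from DNA elements. The two-sided exact permutation test that flips the sign of the difference in each library gave p = 0.125 for each, which is the smallest p that 4 libraries allow, and 0.125 after adjustment over the 5 comparisons.

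This near-equality was a sum of elements that went opposite ways. Among the 103 elements with a mean of at least 100 normalized counts over both strands, 49 had more sense than antisense reads in every library, 50 had more antisense reads in every library, and 4 lay on both sides of 50%. Their median sense share was 51.1%, with 10 elements above 90% and 11 below 10%. The share of an element was steady across libraries: the range over the 4 libraries had a median of 3.97 points, and the largest was 12.9 points.

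**Figure D2:**
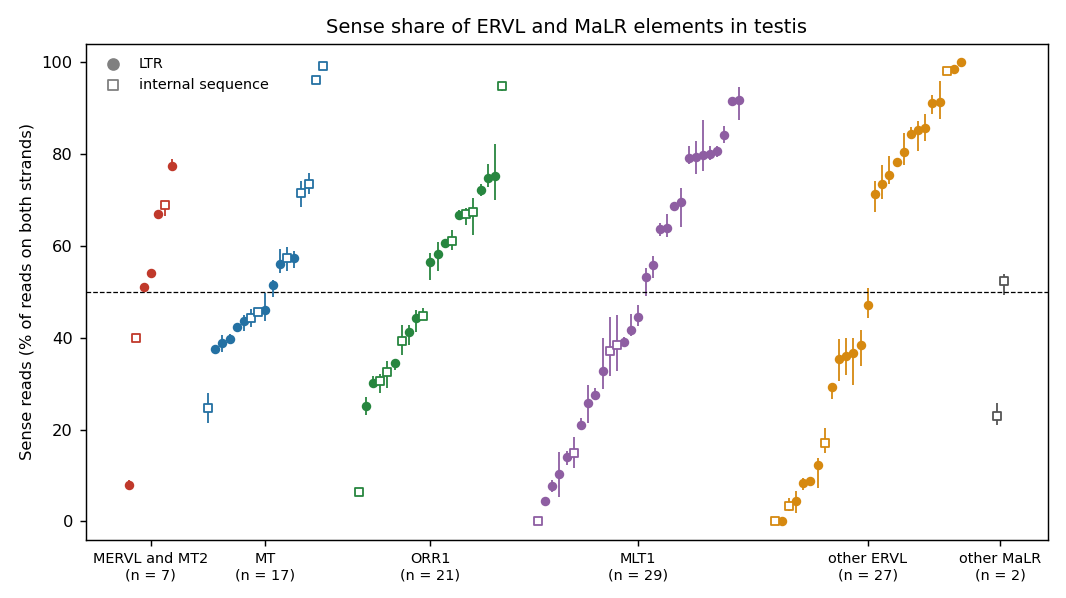
Sense reads as a percentage of the reads on both strands, for the 103 elements with a mean of at least 100 normalized counts over both strands; each symbol is 1 element pooled over the 4 libraries (filled circle LTR, open square internal sequence), the vertical line is its range over libraries, and elements are sorted within each group. The shares run from 0 to 100% in short vertical lines, with 49 elements above and 50 below the dashed line at 50% in every library.

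Among the elements nearly all in sense, LTR16D had 641 sense reads over the 4 libraries and no antisense row, MTEb-int 3662 sense against 32 antisense reads (99.1%), and MER74B 717 against 11 (98.5%). RMER15-int, with 9978 sense and 201 antisense reads (98.0%), was the most abundant of this kind. The table held no row with fewer than 5 reads over the 4 libraries, so a strand without a row was counted as 0 reads. At the other end, MLT1I-int had 2521 antisense reads, MER68-int 799 and LTR83 515, and none of the 3 had a sense row. ERVL-E-int had 226 sense and 6726 antisense reads (3.25% sense), and MLT1E2 had 619 and 13342 (4.43%).

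Within the group of MERVL and MT2 elements, the pooled sense share ranged from 8.03% (MT2C_Mm) to 77.4% (MT2B2). MERVL-int had 39.0% and 40.4% sense reads in the controls and 40.5% and 39.8% in the knockouts, so most of its reads were antisense in every library. MERVL_2A-int had the opposite majority, with 66.4% and 69.6% in Nef-sp+/- against 69.8% and 69.4% in Nef-sp-/-. MT2_Mm lay near equality, between 50.2% and 51.8%. MT2A (66.9% pooled), MT2B (54.2%) and MT2B2 (77.4%) had more sense reads, and MT2C_Mm had the fewest, between 6.95% and 8.94%.

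The LTR and the internal sequence of the same name often differed in strand. For 22 such pairs, the sense shares were within 10 points of each other in 7 and over 30 points apart in 7, with a median distance of 23.2 points. The internal sequence had the higher sense share in 12 pairs and the lower in 10. MTA_Mm was one of the close pairs, with 42.3% for the LTR and 45.7% for the internal sequence, and ORR1D2, with 34.4% and 32.6%, was another. MTB_Mm (46.1% and 96.2%) and MLT1F (69.5% and 15.0%) were the pairs farthest apart. Pairs are listed by name alone, and reads from solitary LTRs, full-length elements and transcripts of host genes that run through a copy were not separated.

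Between genotypes, no ERVL or MaLR element passed an adjusted p of 0.05 on either strand in edgeR. Of the 153 sense members, 130 passed the filter on low counts and 0 were called, where 4 of all 578 repeat sense features (0.692%) were. Of the 154 antisense members, 121 passed and 0 were called, as were 0 of all 553 repeat antisense features (0%). DESeq2 called 0 members on either strand. At an unadjusted p below 0.05 there was 1 sense and 1 antisense member, where 5.02% of all repeat sense features and 2.35% of the antisense ones reached it. The members not tested, 23 in sense and 33 in antisense, had 5 to 43 and 5 to 40 reads over the 4 libraries.

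The knockout over control log2 fold changes centred near 0, with a median of 0.02 in sense and 0.03 in antisense, and 0.01 on each strand for all repeat features tested. They were above 0 in 74 of 130 sense and 76 of 121 antisense members, against 51.7% and 54.6% of all repeat features. With library sizes taken over all categories, the medians were 0.036 and 0.081 and the counts above 0 were 80 of 130 and 84 of 121, against 59.0% and 68.7% of all repeat features. The sign of the median depended on single libraries: it was −0.025 in sense without Nef-sp-/- replicate 2 and −0.003 without Nef-sp+/- replicate 2, and in antisense −0.021 without Nef-sp-/- replicate 1 and −0.007 without Nef-sp+/- replicate 2. The median by group ran from −0.04 (other ERVL, 44 tested) to 0.04 (MT, 19 tested) in sense. In antisense it ran from −0.03 (MERVL and MT2, 7 tested) to 0.05 (MLT1, 33 tested). A log2 fold change beyond ±0.5 was found in 1 sense and 5 antisense members, where the share was 3.81% and 4.16% of all repeat features.

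The intervals show how large a change the libraries leave room for. The 95% interval of the log2 fold change lay within ±1 for 117 of 130 sense and 112 of 121 antisense members, and within ±0.5 for 84 and 72. The 2 knockout libraries lay above the 2 control libraries for 15 sense members and below for 14, where the share over all repeat sense features was 14% above and 15.6% below. In antisense the numbers were 14 above and 18 below, with 11.4% and 12.8% over all features.

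**Figure D3:**
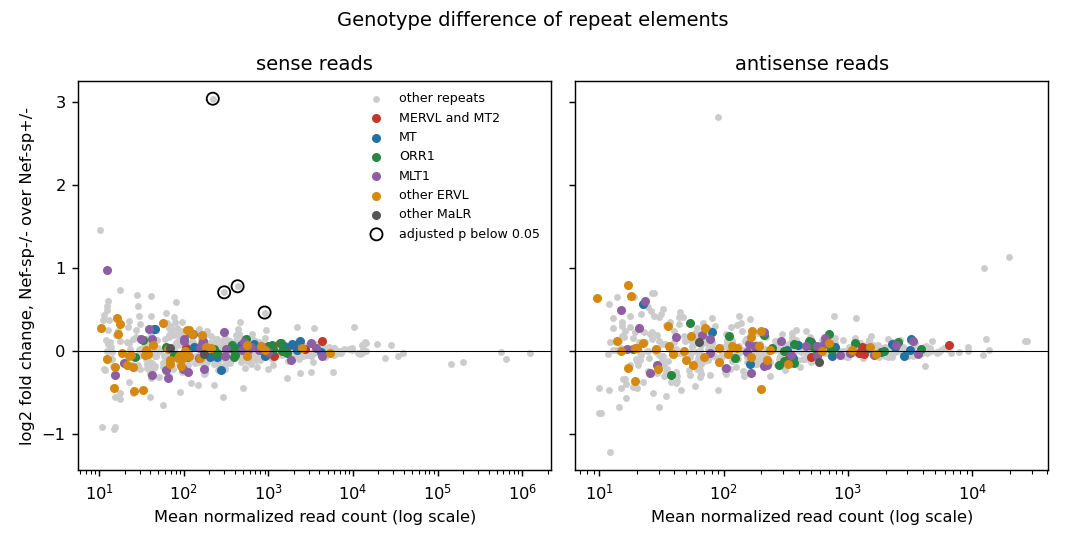
Log2 fold change (Nef-sp-/- over Nef-sp+/-) against the mean normalized read count (log scale) for all repeat features tested, sense (left) and antisense (right); each point is 1 element, colours mark the ERVL and MaLR groups, grey the other repeats, and a ring an adjusted p below 0.05. The 4 ringed points are all grey, and coloured points with large differences lie at low counts.

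MLT2B3, an ERVL LTR, had the smallest p of the antisense members. Its antisense reads were 234 and 226 normalized counts in the controls and 155 and 176 in the knockouts. The genotypes did not overlap, and the log2 fold change was −0.47 (SE 0.147, 95% interval −0.78 to −0.15, unadjusted p = 0.00695, adjusted p = 0.769 from edgeR). Its sense reads were 825 and 802 in Nef-sp+/- against 842 and 845 in Nef-sp-/-, with a log2 fold change of 0.05, and its sense share was 77.6% and 78.5% against 84.7% and 82.2%. The sense to antisense ratio was 0.52 higher in Nef-sp-/- on the log2 scale (SE 0.148, adjusted p = 0.539 in the edgeR fit of strand by genotype, over 478 repeat elements). The antisense difference passed the threshold only with a block that paired replicate 1 of each genotype with replicate 2 of the other, a pairing chosen after seeing the data (adjusted p = 0.0208). In that fit, 1.27% of all repeat antisense features passed and MLT2B3 was the only member among them, and 2.42% of the sense features passed, with 0 members among them.

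MLT1E3, a MaLR LTR with few sense reads, had the smallest p of the sense members. It had 6.76 and 9.51 sense normalized counts in the controls and 16.7 and 16.5 in the knockouts, a log2 fold change of 0.97 (SE 0.438, 95% interval 0.03 to 1.92, adjusted p = 0.925 from edgeR). Over the 4 libraries this element had 48 sense reads against 420 antisense reads. Its strand by genotype difference of 1.17 had an adjusted p of 0.894, and LTR16C, next by p in that test, had −0.77 (adjusted p = 0.998). Of 106 members tested for this interaction, 0 were called and 2 had an unadjusted p below 0.05, where 3.56% of all elements tested did.

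The other members with small p or large differences had none below an adjusted p of 0.998. In sense, MLT1G had 267 and 282 normalized counts in Nef-sp+/- against 329 and 315 in Nef-sp-/- (log2 fold change 0.23), and MLT1M had 76.6 and 68.8 against 58.4 and 56.2 (−0.33). LTR16B, with 44.0 and 32.9 in the controls and 29.8 and 24.3 in the knockouts, and LTR16C, with 27.0 and 32.9 against 23.9 and 19.8, had the most negative log2 fold changes, −0.48 each. Both are LTRs of ERVL elements that predate the rodent lineage. MER74A (−0.45), MER73 (0.40) and ERVL-E-int sense (0.33) were the other members with large differences, all at means below 100 normalized counts.

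In antisense, the internal sequence ORR1A4-int had 682 and 635 normalized counts in Nef-sp+/- against 760 and 753 in Nef-sp-/- (log2 fold change 0.20, 95% interval −0.02 to 0.42), and MLT1F had 189 and 202 against 246 and 214 (0.23). The genotypes did not overlap in either. MER70B (0.79), MER70A (0.66), MLT2B5 (0.64) and MTE2a-int (0.56) were higher in the Nef-sp-/- mean, and MLT2C1 (−0.36) and ORR1B2-int (−0.29) lower, all with means under 50 normalized counts and intervals that include 0. MER70B rested on 1 library, with 15.5 and 10.5 in the controls and 8.50 and 34.0 in the knockouts; its log2 fold change was between −0.56 and 1.43 after dropping each library singly.

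Libraries of the same genotype differed too. Nef-sp+/- replicate 1 was above replicate 2, together with Nef-sp-/- replicate 2 above replicate 1, in 50 of 130 sense members tested (38.5%) and 45 of 121 antisense members (37.2%), against 29.9% and 33.1% of all repeat features. Other classes varied widely. In sense the share was 35.4% for LINE, 34.5% for ERV1, 27.6% for ERVK, 25.0% for DNA and 18.9% for SINE elements. In antisense it was 51.0% for LINE, 36.6% for ERVK, 28.0% for ERV1, 17.9% for DNA and 13.5% for SINE elements. Among the members, this order was found in 13 of 24 ORR1 elements, 9 of 19 MT and 4 of 7 MERVL and MT2 elements in sense, but 6 of 34 MLT1 elements. In antisense it was 12 of 23 ORR1, 8 of 16 MT, 4 of 7 MERVL and MT2 and 7 of 33 MLT1 elements. Internal sequences had this order in 18 of 37 cases in sense and 16 of 32 in antisense, and LTRs in 32 of 93 and 29 of 89.

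**Figure D4:**
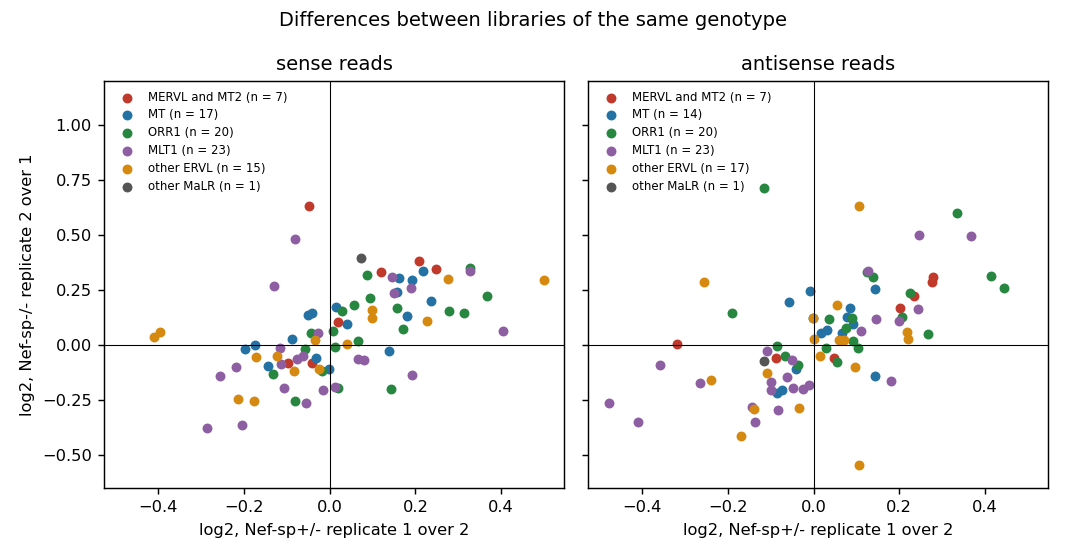
Log2 ratio of the Nef-sp-/- libraries (replicate 2 over 1, vertical axis) against that of the Nef-sp+/- libraries (replicate 1 over 2, horizontal axis) for members with a mean of at least 100 normalized counts, sense (left, 83 elements) and antisense (right, 82 elements); each point is 1 element, coloured by group. Of the ORR1 elements 12 of 20 lie in the upper right on each strand, and of the MLT1 elements 11 of 23 in sense and 15 of 23 in antisense lie in the lower left.

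The same pairs of libraries stood out in the make-up of the ERVL and MaLR reads. The MERVL and MT2 share of these reads was 16.3% in Nef-sp+/- replicate 1 and 16.8% in Nef-sp-/- replicate 2, and 15.0% in both other libraries. The MLT1 share was 23.7% and 23.0% in the first pair and 25.6% and 26.0% in the other. Germ cell marker sums also varied between these libraries: the 4 spermatogonial markers summed to 308 and 289 normalized counts in Nef-sp+/- against 263 and 351 in Nef-sp-/-, and the 4 spermatocyte markers to 13467 and 12779 against 12299 and 13623. Both lists were higher in Nef-sp+/- replicate 1 and Nef-sp-/- replicate 2. Most of the spermatogonial sum was Kit (214 and 207 against 180 and 241) and Stra8 (87.5 and 76.1 against 76.2 and 97.0). Zbtb16 and Gfra1 had too few reads for the test. The 3 round spermatid markers, Acrv1, Acr and Tnp1, summed to 67642 and 77199 in the controls and 81480 and 80353 in the knockouts. This sum was lowest in Nef-sp+/- replicate 1, as was that of the elongating spermatid markers above. Most of the round spermatid sum was Tnp1 (60173 and 69754 against 74025 and 72979). Acrv1 was lowest in Nef-sp+/- replicate 2 and Acr in Nef-sp-/- replicate 2. The 5 Leydig cell markers summed to 17486 and 17369 against 16545 and 13932, lowest in Nef-sp-/- replicate 2. Cyp17a1, Cyp11a1 and Star were each lowest in that library, while Hsd3b1 and Insl3 were highest in it. The 3 macrophage markers summed to 84.0 and 95.1 against 90.1 and 84.0. The 3 peritubular myoid markers summed to 1273 and 1235 against 1089 and 1193. None of the 8 marker lists had a gene with an adjusted p below 0.05 between genotypes in edgeR. Those with an unadjusted p below it were Cyp17a1, Cyp11a1 and Tnp1. Cyp17a1 and Cyp11a1, steroidogenic enzymes of Leydig cells, were lower in both knockout libraries (log2 fold changes −0.27 and −0.35), and Tnp1 was higher in both (0.18). The other Leydig cell markers went the other way in their means, with log2 fold changes of 0.15 for Hsd3b1, 0.18 for Insl3 and 0.08 for Star. Each of them overlapped between genotypes. For all these lists, their part in the element values was not tested.

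Genes of the machinery known to silence ERVL elements were listed and tested in full, and 0 of 22 were called, where 1 of all 10728 gene exon sense features (0.00932%) was. None had an unadjusted p below 0.05, which 4.8% of all features reached. Their log2 fold changes ran from −0.43 to 0.23, with a median of −0.02. The 2 with the smallest p were Atf7ip and Trim28. Trim28, the co-repressor recruited by KRAB zinc finger proteins, had 10114 and 9806 normalized counts in the controls and 9430 and 8731 in the knockouts (log2 fold change −0.13, adjusted p = 0.954 from edgeR). Atf7ip, a partner of the histone methyltransferase SETDB1, had 908 and 851 against 763 and 811 (−0.16, adjusted p = 0.954). The demethylase Kdm1a, listed by its older symbol Aof2, had 3455 and 3200 in Nef-sp+/- against 3176 and 3379 in Nef-sp-/- (−0.02).

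Of 11 genes listed as expressed with MERVL in the early embryo, 1 was found in the gene exon sense category. For the genes not found, a symbol missing from the annotation and fewer than 5 reads over the 4 libraries cannot be told apart. The gene found was Tdpoz3, with 2.30 and 0 normalized counts in the controls and 1.15 and 2.37 in the knockouts, which was too few for the test.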

How the data were processed

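Testicular total RNA was depleted of ribosomal RNA with Ribo-Zero and made into strand-specific TruSeq libraries, sequenced for 50 cycles. The authors trimmed adapters, used their own tools to place reads on mm9, retained those that matched without a mismatch, and deposited raw read counts for each feature, in 10 categories by annotation and strand. How reads with several matches, or reads in repeats inside genes, were assigned is not given in the sources used here; near-identical elements may share reads. The deposited table also holds the authors' own DESeq2 comparison, a mean normalized signal (baseMean), a log2 fold change and 2 columns of p-values, none of which was used.

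From the counts, normalized values and tests were obtained with edgeR 4.0.16 (R 4.3.3) within each strand category over all its features: TMM scaling, filterByExpr with a minimum count of 10, the quasi-likelihood test and Benjamini-Hochberg adjustment. The strand by genotype term was tested with the library as a block. Sense shares use raw counts. Exact permutation tests over libraries were two-sided. Replicate differences are log2 ratios of normalized counts plus 1. The fits were also run on simulated counts with set differences, which checks the code and not whether the model suits these libraries. Alternatives were DESeq2 1.42.0 and its size factors, library sizes over all categories, other filters, both strands in a single fit, a replicate block and leaving out each library. The rule for the members uses class labels and no measured value, but this set of elements, its groups and the gene lists were picked for study with earlier results of these data known. Named are all MERVL and MT2 elements, the most abundant members, those with the smallest p or largest differences on each strand, those with extreme sense shares, and the 3 with the smallest interaction p. The LTR and internal pairs given as examples, MTE2a sense reads and Kdm1a were named after their values were seen. So were Cyp17a1, Cyp11a1, Hsd3b1, Insl3, Star, Acrv1, Acr, Tnp1, Kit, Stra8, Zbtb16 and Gfra1. Depth was 20659865 to 34442517 reads per library.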

Additional observations from a re-analysis of the deposited data

How the results depend on the processing

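No ERVL or MaLR sense element and no strand by genotype interaction was called under any alternative run. In antisense 1 was called, MLT2B3, and only with the crossed replicate block. All repeat sense features called numbered 4, and 0 with library sizes over all categories, 2 with no expression filter, 3 with the replicate block, 14 with the crossed block and 0 to 10 with each library left out. Repeat antisense calls numbered 0, and 3 with the replicate block, 7 with the crossed block and 1 to 4 with each library left out. The labels do not say that same-numbered libraries share more than a number. Their deviations had a correlation of −0.21 in sense and −0.29 in antisense, and the replicate block changed no call of a member. The members' median log2 fold change was 0.036 in sense and 0.081 in antisense with library sizes over all categories, 0.019 in antisense with no filter and 0.048 with both strands in a single fit. It ranged from −0.025 to 0.034 in sense and −0.021 to 0.041 in antisense with each library left out. The causes of these shifts were not tested. Genotype differences in the members' share of repeat reads and in their sense share were also compared. Both moved by less than the spread of replicates with filtered elements alone and without the element with most reads. With a library left out they ran from −0.027 to 0.343 and from −0.985 to 0.089 percentage points, so neither kept its sign. With 2 libraries per genotype, leaving 1 out cannot move such a difference by more than the pooled SD, so that spread is no yardstick here.

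Of 52 named values, 27 changed sign when a library was left out, all with adjusted p above the threshold in the fit of all 4 libraries. The log2 fold changes then ran as follows in sense: ERVL-E-int from −0.36 to 0.81, MERVL-int from −0.063 to 0.29, MERVL_2A-int from −0.13 to 0.21, MLT-int from −0.26 to 0.14, MLT1A1 from −0.0599 to 0.15, MLT1D from −0.16 to 0.028, MLT1K from −0.014 to 0.19, MT2A from −0.028 to 0.065, MT2B from −0.022 to 0.087, MT2C_Mm from −0.33 to 0.31, MT2_Mm from −0.12 to 0.27, MTA_Mm from −0.045 to 0.26, MTD from −0.051 to 0.0045, MTEa from −0.0196 to 0.0597 and RMER15-int from −0.036 to 0.091. In antisense they ran as follows: MER70B from −0.56 to 1.43, MERVL-int from −0.0897 to 0.22, MERVL_2A-int from −0.23 to 0.066, MLT1D from −0.058 to 0.19, MLT1E2 from −0.068 to 0.33, MLT1J from −0.23 to 0.13, MT2B2 from −0.23 to 0.082, MT2C_Mm from −0.14 to 0.076, MT2_Mm from −0.076 to 0.17, MTD from −0.0404 to 0.0395, MTE2a from −0.064 to 0.15 and ORR1E from −0.017 to 0.063. In the other settings, 2 antisense values changed sign: MT2C_Mm was 0.0090 with library sizes over all categories, and MTD was −0.0085 with no filter and −0.0021 with at least 10 counts in every library.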
